A study of Mus musculus with 15 samples.

Results

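Transcripts of 10 receptors for hematopoietic growth factors and cytokines (Flt3, Csf1r, Csf2ra, Csf2rb, Csf2rb2, Csf3r, Kit, Il4ra, Ltbr and Il3ra) were followed through 5 sorted mononuclear phagocyte (MP) subtypes of the mouse. The genes were taken by symbol, each symbol matched 1 Ensembl identifier, and these are 10 of the 38924 gene identifiers counted. All 10 passed the filter on low counts. The 15 libraries were splenic CD8+ DCs (DC1), splenic CD4+ DCs (DC2) and splenic Ly6C+ monocytes, and, from lymph nodes (LNs) draining the lung, CD103+ DCs (DC1) and CD11b+ DCs (DC2), with 3 libraries a subtype. All came from naïve C57BL/6 mice, female by the study's methods, 6-8 weeks old by the sample labels and up to 10 weeks by the study's methods. Each library is a pool of cells from 5 animals, and LNs and spleens were taken from separate cohorts. DCs were enriched on CD11c beads and monocytes on CD11b beads before sorting on CD11c, MHC class II and the marker that names each DC subtype, or on CD11b and Ly6C. Lineage-negative cells were taken by the study's methods, whose mouse antibodies include CD3, B220, NK1.1, Ly6G and Gr1. LN DCs were in addition gated on high MHC class II, so organ, cohort and gate cannot be told apart in any comparison of LN with spleen.

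These receptors set which growth factors a phagocyte can respond to. FLT3, KIT and CSF1R are receptor tyrosine kinases of one family. FLT3 ligand drives DC development from bone marrow progenitors, M-CSF acting through CSF1R sustains monocytes and macrophages, and stem cell factor acting through KIT supports progenitors and mast cells. The receptors for GM-CSF and interleukin 3 pair a ligand-binding alpha chain (Csf2ra, Il3ra) with a shared signalling beta chain (Csf2rb), and mice have in addition Csf2rb2, a beta chain that serves the interleukin 3 receptor alone. CSF3R is the G-CSF receptor of the granulocyte lineage, IL4RA is the chain common to both interleukin 4 receptors and signals through STAT6, and LTBR, the lymphotoxin beta receptor, activates the noncanonical NF-kappaB pathway and is needed for upkeep of splenic CD4+ DCs.

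Libraries held 4531243 to 10233914 counts on genes, with the fewest in LN CD11b+ replicate 3, and LN libraries had more genes detected (16897 to 17693) than those from spleen (15222 to 16438). The share of uniquely mapped reads outside exons was 24.7% to 30.7% in LN and 17.6% to 28.4% in spleen. The part of these library properties in the organ differences was not tested. The sorting markers followed the labels in most respects. Cd8a was at 344 to 625 CPM (counts-per-million) in splenic CD8+ DCs and at most 20.5 elsewhere, and Cd4 peaked in splenic CD4+ DCs (93.0 to 195 CPM). Itgae, which encodes CD103, was lower in LN CD103+ DCs (20.8 to 39.6 CPM) than in splenic CD8+ DCs (71.8 to 135 CPM), while the other LN DCs had at most 5.71. The migratory DC list (Ccr7, Fscn1, Ccl22 and Socs2) summed to 6227 to 13926 CPM in LN DCs and to 149 to 398 CPM in splenic DCs. In bulk RNA of this kind, fewer cells that express a receptor and less of its RNA per cell cannot be told apart.

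All values in CPM here were scaled by the trimmed mean of M-values (TMM) method and are given as mean ± SD with n = 3 libraries. Differences are log2 fold changes ± SE from edgeR's quasi-likelihood model over 14456 genes, with Benjamini-Hochberg adjustment of p over that whole set, and a gene was called at an adjusted p under 0.05. With 3 libraries against 3, an exact permutation test of a single gene cannot go below p = 0.1. All 10 receptors were called as different somewhere among the 5 subtypes, beside 73.5% of all genes tested. Each receptor was therefore placed in order of its level, as in the plot of receptor transcripts by library.

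**Figure D1:**
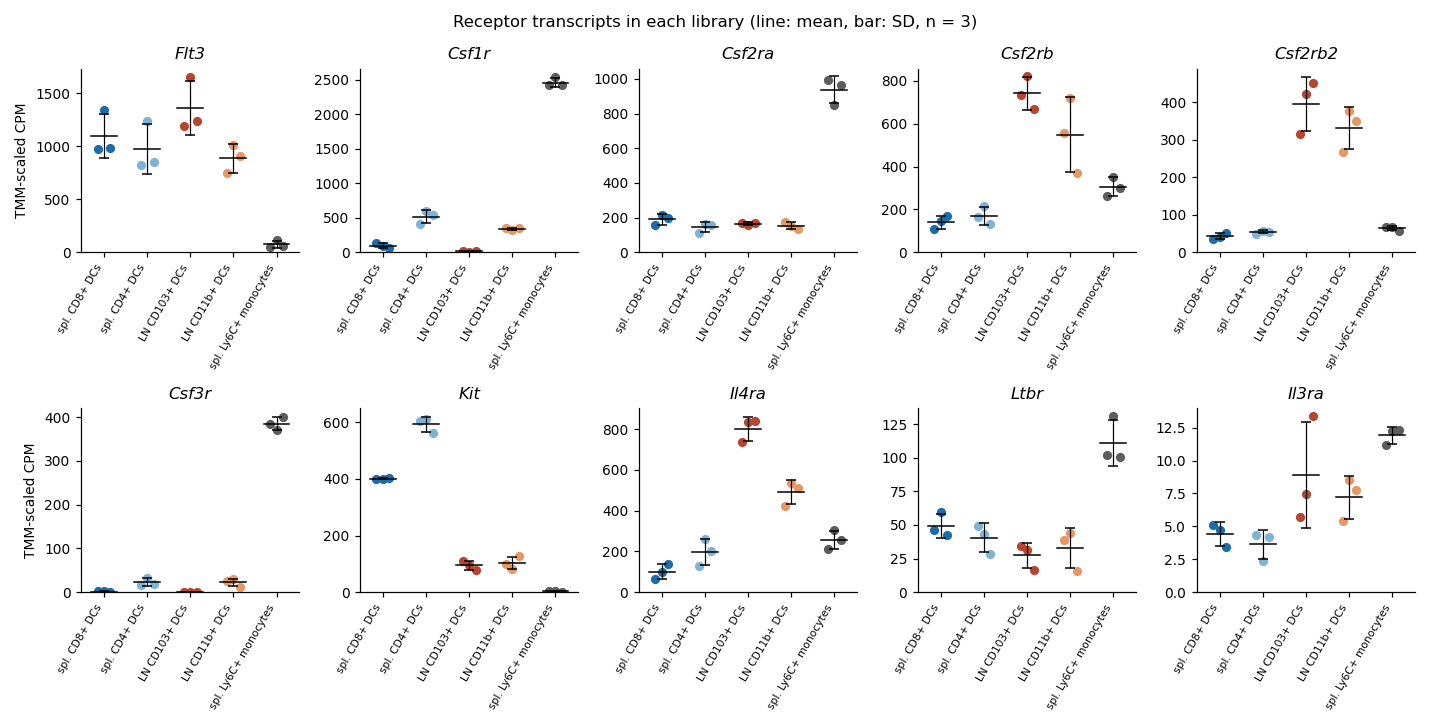
TMM-scaled CPM (vertical axes, each starting at 0) of the 10 receptors in each of 15 libraries, by subtype (horizontal axis), with points for libraries, lines for means and bars for SD (n = 3). Csf1r, Csf2ra, Csf3r and Ltbr were highest in monocytes, Csf2rb, Csf2rb2 and Il4ra in LN DCs, and Kit in splenic DCs, while Flt3 was at 743 CPM or more in every DC library and at most 117 CPM in monocytes.

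Flt3, the receptor for FLT3 ligand, was high in all 4 DC subtypes and low in monocytes. LN CD103+ DCs had 1191, 1651 and 1242 CPM (1361 ± 252), and LN CD11b+ DCs had 743, 1009 and 905 CPM (886 ± 134). Splenic CD8+ DCs had 975, 1340 and 981 CPM (1099 ± 209), and splenic CD4+ DCs had 826, 1241 and 848 CPM (971.9 ± 234). Monocytes had 50.9, 117 and 55.1 CPM (74.2 ± 36.7). Every DC library stood above every monocyte library. The ranges of splenic CD8+ DCs overlapped with those of the other DCs, whereas every LN CD103+ library lay above every LN CD11b+ library. Monocytes were 14.8-fold below splenic CD8+ DCs (log2 -3.88 ± 0.31, edgeR adjusted p = 1.05e-08) and 13.1-fold below splenic CD4+ DCs (log2 -3.71, adjusted p = 2.14e-08). None of the 3 steps between DC subtypes in the order of levels passed the test. The difference between LN CD103+ and LN CD11b+ DCs, a ratio of 1.54, was not called (log2 0.62, 95% interval 0.04 to 1.20, adjusted p = 0.166), but it was with the replicate number as a block (log2 0.61 ± 0.18, adjusted p = 0.0236). Under the other settings tried that adjusted p ran up to 0.439, and the block was the only one of 14 that gave a call.

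Csf1r separated the lineages of DCs as well as monocytes from DCs. Monocytes had 2421, 2536 and 2421 CPM (2459 ± 66.1). Splenic CD4+ DCs followed with 407, 596 and 544 CPM (516 ± 97.5) and LN CD11b+ DCs with 348, 325 and 352 CPM (341 ± 14.7), and this step was not called (adjusted p = 0.0939) except without the filter on low counts (adjusted p = 0.0374). Splenic CD8+ DCs had 138, 91.0 and 61.2 CPM (96.6 ± 38.5) and LN CD103+ DCs 13.4, 8.54 and 18 CPM (13.3 ± 4.75), so the DC1 libraries of both organs lay below all DC2 libraries. The DC2 subtype exceeded the DC1 subtype 5.34-fold in spleen (log2 -2.42 ± 0.28 for DC1 minus DC2, edgeR adjusted p = 3.49e-06) and 25.6-fold in LN (log2 -4.69, adjusted p = 2.06e-08). These lineage differences themselves differed between organs, with an interaction of log2 -2.27 (95% interval -3.09 to -1.46, adjusted p = 7.20e-04). The organ difference was -2.87 in DC1 (adjusted p = 2.46e-07) and -0.60 in DC2 (adjusted p = 0.0939) on the log2 scale.

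Marker lists of DC2, monocytes and macrophages were read in the same libraries as Csf1r. Within splenic CD8+ DCs the library with most Csf1r, replicate 1, also had most Sirpa (118 CPM, against 64.4 and 45.3) and most Cd4 (18.2 CPM, against 3.10 and 1.95). The DC2 list of 5 genes summed to 98.3 to 266 CPM in that subtype. In the other DCs it reached 1425 to 2165 CPM (splenic CD4+), 50.3 to 72.8 CPM (LN CD103+) and 748 to 822 CPM (LN CD11b+). In monocytes it reached 1358 to 1531 CPM. Without replicate 1 the splenic lineage difference of Csf1r was larger (log2 -2.76). The monocyte list (Ly6c2, Ccr2, Cd14, Fcgr1 and S100a4) summed to 490.1 to 570.0 CPM in LN CD11b+ DCs, 141 to 192 CPM in LN CD103+ DCs, 97.0 to 148 CPM in splenic CD8+ DCs, 405 to 592 in their CD4+ counterparts and 3209 to 3788 CPM in monocytes, with Fcgr1 and Ly6c2 at 9.27 to 21.6 and 11.7 to 17.2 CPM in LN CD11b+ DCs. The ranges of the monocyte list in LN CD103+ and splenic CD8+ DCs overlapped. The macrophage list (Adgre1, Mertk, C1qa, C1qb and Vcam1) summed to 961 to 1281 CPM in splenic CD4+ DCs and 542 to 747 CPM in LN CD11b+ DCs. It summed to 149 to 241 and 155 to 204 CPM in splenic and LN DC1, and to 395 to 482 CPM in monocytes. Among DCs it was higher in both DC2 subtypes. No gene of these lists was at 0 in every library of a subtype, and their part in the Csf1r levels was not tested. The exons of Csf1r overlap those of Hmgxb3 over 17.8% of their length, and reads there were counted for both genes.

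Kit marked the splenic DCs. Splenic CD4+ DCs had 604, 609.8 and 563 CPM (592 ± 25.6) and splenic CD8+ DCs 399, 399.9 and 402 CPM (400.1 ± 1.48), whereas LN CD11b+ DCs had 99.9, 81.6 and 127 CPM (103 ± 22.6) and LN CD103+ DCs 110.1, 94.4 and 78.5 CPM (94.3 ± 15.8). Monocytes had 2.75, 4.27 and 1.45 CPM, a total of 69 counts in 3 libraries. No splenic DC library overlapped with any LN DC or monocyte library. Kit was 4.24-fold lower in LN than in spleen among DC1 (log2 -2.08 ± 0.24, edgeR adjusted p = 1.08e-06) and 5.77-fold lower among DC2 (log2 -2.53, adjusted p = 2.54e-07). The interaction of organ with lineage was not called (log2 0.45, 95% interval -0.24 to 1.13, adjusted p = 0.434). Between the splenic DCs the groups did not overlap but the ratio of 1.48 was not called (adjusted p = 0.0757, and 0.0182 by DESeq2), and in the order of levels LN CD11b+ and LN CD103+ DCs did not differ beyond their spread (adjusted p = 0.813). Of 8 mast cell and basophil genes, Mcpt8 and Ms4a2 were at 0 in all 15 libraries, Cpa3 and Fcer1a were at most 0.43 CPM, and the list summed to at most 6.95 CPM in DCs and 8.84 CPM in monocytes, where 7 of the 8 had no count and Hdc made the whole sum.

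The kinases thus stood in different proportions in each subtype when set per transcript length, in the TPM values that the authors deposited. The ratio of Csf1r to Flt3 TPM was 34.6 to 75.6 in monocytes, 0.763 to 1.02 in splenic CD4+ DCs, 0.511 to 0.744 in LN CD11b+ DCs, 0.0991 to 0.224 in splenic CD8+ DCs and 0.00821 to 0.0231 in LN CD103+ DCs. No subtype's range met that of its neighbour in this order. The ratio of Kit to Flt3 TPM was 0.654 to 0.972 in splenic CD4+ DCs and 0.397 to 0.545 in splenic CD8+ DCs, against 0.108 to 0.186 in LN CD11b+ and 0.0761 to 0.123 in LN CD103+ DCs.

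**Figure D2:**
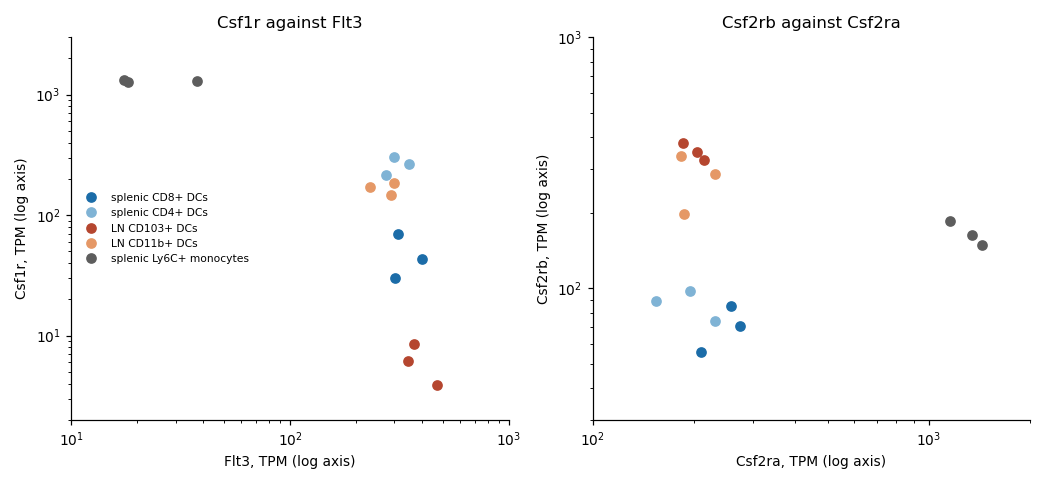
Deposited TPM of Csf1r against Flt3 (left) and of Csf2rb against Csf2ra (right) in each of 15 libraries, coloured by subtype, with both axes logarithmic. On the left the DC1 and DC2 libraries part along the Csf1r axis at similar Flt3, and on the right LN DCs lie above splenic DCs at similar Csf2ra while monocytes lie to the right of all DCs.

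Csf2ra, the alpha chain that binds GM-CSF, was higher in monocytes than in splenic DCs, with no difference called among DCs. Monocytes had 996, 852 and 968 CPM (939 ± 76.2), and the 12 DC libraries lay between 111 and 217 CPM, with subtype means of 191 (splenic CD8+), 165 (LN CD103+), 154 (LN CD11b+) and 145 CPM (splenic CD4+). No monocyte library overlapped with any DC library. The excess in monocytes was 4.92-fold over splenic CD8+ DCs (log2 2.30 ± 0.20, edgeR adjusted p = 2.78e-08) and 6.49-fold over splenic CD4+ DCs (log2 2.70, adjusted p = 5.85e-09). The 95% interval of the organ difference was -0.61 to 0.19 in DC1 and -0.31 to 0.50 in DC2 on the log2 scale.

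The beta chains behaved otherwise, with both high in LN DCs. Csf2rb, the shared chain, had 734, 821 and 669.8 CPM in LN CD103+ DCs (742 ± 76.0) and 558, 719.6 and 368 CPM in LN CD11b+ DCs (548 ± 176). Monocytes had 264, 352 and 301 CPM (306 ± 44.0), splenic CD4+ DCs 164, 214 and 130.0 CPM (169 ± 42.1) and splenic CD8+ DCs 106, 145 and 169 CPM (140.0 ± 31.6). LN DCs stood above all spleen libraries, although LN CD11b+ replicate 3, at 368 CPM, came close to the highest monocyte library. Csf2rb2 in LN DCs had 314, 422 and 450.0 CPM on the CD103+ side (395 ± 72.0) and 268, 375 and 349.9 CPM on the CD11b+ side (331 ± 55.8), and between 35.8 and 68.1 CPM in all 9 libraries from spleen.

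The organ difference of Csf2rb was 5.30-fold in DC1 (log2 2.41 ± 0.26, edgeR adjusted p = 4.48e-07) and 3.24-fold in DC2 (log2 1.7, adjusted p = 3.86e-05). That of Csf2rb2 was 9.22-fold in DC1 (log2 3.20, adjusted p = 1.34e-09) and 6.09-fold in DC2 (log2 2.61, adjusted p = 3.12e-08). Neither interaction with lineage was called (log2 0.71, adjusted p = 0.212 for Csf2rb, and log2 0.60, adjusted p = 0.19 for Csf2rb2), and neither chain was called between lineages within an organ. Monocytes exceeded splenic CD8+ DCs in Csf2rb by 2.18-fold (log2 1.13, adjusted p = 0.00118) and splenic CD4+ DCs by 1.81-fold (log2 0.85, adjusted p = 0.00852). Csf2rb2 was called between monocytes and splenic CD8+ DCs at a ratio of 1.49 (log2 0.57, adjusted p = 0.0272), but not against splenic CD4+ DCs (log2 0.23, adjusted p = 0.354). The call against splenic CD8+ DCs was lost without splenic CD8+ replicate 1 or 2 or monocyte replicate 1 or 2 (log2 0.46 to 0.55, adjusted p from 0.0738 to 0.121), and with the second run of the monocyte libraries alone (adjusted p = 0.0682).

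Csf2rb (chr15:78325990-78351000, plus strand) and Csf2rb2 (chr15:78282517-78305603, minus strand, both mm10) lie near each other and are close copies, so the split of reads between them is uncertain. Their coding sequences of 2688 and 2634 bases were 95.2% identical where aligned, with a longest shared run of 242 bases. Of the 50-base windows of Csf2rb, 26% occur in Csf2rb2, as do 11% of its 100-base and 2.61% of its 200-base windows. Reads were counted only where they mapped to 1 place, so reads that matched both genes equally were not counted. A pair of neighbouring 60-base windows (GRCm38) shows what a read could and could not tell apart, with capitals marking the bases that differ between the genes.
Csf2rb, chr15:78338834-78338893, plus strand: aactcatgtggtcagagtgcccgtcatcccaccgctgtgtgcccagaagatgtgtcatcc
Csf2rb2, chr15:78294438-78294497, minus strand: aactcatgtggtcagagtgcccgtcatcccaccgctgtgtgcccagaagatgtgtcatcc
Csf2rb, chr15:78338893-78338952, plus strand: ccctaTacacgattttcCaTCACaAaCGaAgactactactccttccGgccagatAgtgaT
Csf2rb2, chr15:78294379-78294438, minus strand: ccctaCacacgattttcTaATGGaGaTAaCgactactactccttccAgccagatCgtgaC
The first window holds 0 and the second 13 differences. When the counts of both genes were added and tested as 1 feature, the sum was higher in LN than in spleen by log2 2.64 ± 0.23 in DC1 (edgeR adjusted p = 2.63e-08) and by log2 1.98 ± 0.22 in DC2 (adjusted p = 1.58e-06). The ratio of Csf2rb2 to Csf2rb TPM was 0.441 to 0.983 in LN DCs and 0.196 to 0.439 in the spleen.

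Alpha and beta chains of the GM-CSF receptor therefore stood in different ratios by organ. Csf2ra exceeded Csf2rb in all 9 spleen libraries, with TPM ratios of 6.24 to 9.71 in monocytes, 3.04 to 3.86 in splenic CD8+ DCs and 1.74 to 3.11 in splenic CD4+ DCs. In all 6 LN libraries it was below Csf2rb, at ratios of 0.49 to 0.658 in CD103+ and 0.544 to 0.947 in CD11b+ DCs. Reads that matched Csf2rb and Csf2rb2 equally were not counted, so Csf2rb TPM may be too low and these ratios too high. The size of this effect was not tested.

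Il3ra, the alpha chain that binds interleukin 3, was low in every subtype. Monocytes had 11.2, 12.2 and 12.4 CPM (11.9 ± 0.63), LN CD103+ DCs 5.72, 7.48 and 13.4 CPM (8.87 ± 4.03), LN CD11b+ DCs 5.37, 8.50 and 7.73 CPM (7.20 ± 1.63), splenic CD8+ DCs 5.13, 4.72 and 3.43 CPM (4.43 ± 0.89) and splenic CD4+ DCs 4.38, 2.38 and 4.16 CPM (3.64 ± 1.09). Monocytes lay above all splenic DC libraries, whereas 1 LN CD103+ library lay above all monocytes. None of the 4 steps in the order was called. Monocytes exceeded splenic CD8+ DCs 2.69-fold (log2 1.43 ± 0.36, edgeR adjusted p = 0.00366) and splenic CD4+ DCs 3.28-fold (log2 1.7, adjusted p = 0.00108). The organ difference in DC1 was called at a ratio of 2.00 (log2 0.99, adjusted p = 0.0323) and in DC2 it was not at 1.98 (log2 0.96, adjusted p = 0.0573). Without LN CD103+ replicate 3 the former was log2 0.58 with an adjusted p of 0.236, and it was also lost without splenic CD8+ replicate 2 or 3 (adjusted p = 0.0647 and 0.114) and under other settings, over which the adjusted p ran from 0.0142 to 0.236.

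Csf3r, the G-CSF receptor, had the widest range of the group. Monocytes had 385, 371 and 399.7 CPM (385 ± 14.4). Splenic CD4+ DCs had 16.1, 32.9 and 19.5 CPM (22.8 ± 8.87) and LN CD11b+ DCs 24.5, 29.7 and 12.6 CPM (22.3 ± 8.79), which did not differ beyond their spread (log2 -0.01, 95% interval -0.95 to 0.92, adjusted p = 0.988). The DC1 subtypes were near the floor, with 1.91, 1.89 and 0 CPM in splenic CD8+ DCs (30 counts in all) and 1.26, 0 and 0.828 CPM in LN CD103+ DCs (14 counts in all). All DC2 libraries lay above all DC1 libraries. The DC2 subtype exceeded DC1 18-fold in spleen (log2 -4.18 ± 0.58 for DC1 minus DC2, edgeR adjusted p = 3.00e-05) and 32.1-fold in LN (log2 -5.07, adjusted p = 2.83e-05), and the interaction was not called (adjusted p = 0.624). Monocytes exceeded splenic CD4+ DCs 16.9-fold (log2 4.08 ± 0.48, adjusted p = 1.45e-06) and splenic CD8+ DCs 304-fold (log2 8.26, adjusted p = 4.41e-09). The sizes against DC1 rest on single libraries. Without splenic CD8+ replicate 3 the splenic lineage difference was log2 -3.57 and that of monocytes from splenic CD8+ DCs log2 7.65, and the LN lineage difference was log2 -5.94 without LN CD103+ replicate 1 and -4.39 without replicate 2, all still called.

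Because Csf3r is a gene of granulocytes, neutrophil genes were looked at in the same libraries, although the lineage gate would remove neutrophils where it held Ly6G or Gr1. Of 9 such genes, 6 averaged 10 CPM or more in monocytes, and the list summed to 298 to 446 CPM there and to at most 5.74 CPM in any DC library. Those 6 were granule and calprotectin genes, such as Mmp8 (84.2 to 117 CPM) and Ngp (80.4 to 134 CPM). The calprotectin genes are S100a8 and S100a9, which the study names among the signature genes of monocytes. Ly6g, Retnlg and Cxcr2, which mature neutrophils express, were at 0 to 0.971 CPM in monocytes. In LN CD11b+ replicate 3 the neutrophil list reached its 5.74 CPM, of which Cxcr2 made 4.64, and Csf3r was lowest of that subtype there. The monocyte list given beside Csf1r summed to 405 to 592 CPM in splenic CD4+ DCs and 490.1 to 570.0 CPM in LN CD11b+ DCs. In splenic CD8+ and LN CD103+ DCs it summed to 97.0 to 148 and 141 to 192 CPM. The part of the neutrophil and monocyte genes in the Csf3r levels was not tested.

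Il4ra was higher in LN than in splenic DCs. LN CD103+ DCs had 735, 833 and 840 CPM (802 ± 58.9) and LN CD11b+ DCs 424, 536 and 511 CPM (490.4 ± 58.6), above monocytes at 212, 303 and 254 CPM (256 ± 45.5), splenic CD4+ DCs at 130.2, 259.9 and 201 CPM (197 ± 64.9) and splenic CD8+ DCs at 67.1, 99.3 and 137 CPM (101 ± 34.8). No LN library overlapped with a spleen library. LN exceeded spleen 7.94-fold in DC1 (log2 2.99 ± 0.28, edgeR adjusted p = 6.35e-08) and 2.49-fold in DC2 (log2 1.32 ± 0.26, adjusted p = 6.49e-04). These organ differences differed from each other (interaction log2 1.67, 95% interval 0.91 to 2.44, adjusted p = 0.00529). In spleen DC2 exceeded DC1 1.95-fold (log2 -0.96 for DC1 minus DC2, adjusted p = 0.00966), a call lost without splenic CD8+ replicate 1 or splenic CD4+ replicate 2 (log2 -0.74 and -0.71, adjusted p = 0.0546 and 0.0628). In LN the order was the opposite, DC1 over DC2 at a ratio of 1.64, which was not called (log2 0.71, adjusted p = 0.078) but was with the block (log2 0.72 ± 0.19, adjusted p = 0.0125). Of 14 other settings 4 gave a call, the block among them, and that adjusted p ran from 0.0125 to 0.217. Monocytes exceeded splenic CD8+ DCs 2.54-fold (log2 1.34, adjusted p = 3.70e-04), and against splenic CD4+ DCs the ratio of 1.30 was not called. T cells express Il4ra too, and the lineage gate would remove those bearing CD3. The T cell list (Cd3e, Cd3d, Cd3g, Trac and Cd5) summed to 33.2 to 66.7 CPM in LN CD103+ and 27.6 to 43.7 CPM in LN CD11b+ DCs, against 3.37 to 16.1 CPM in splenic DCs and at most 0.388 CPM in monocytes. No gene of that list was at 0 throughout an LN subtype, and their part in the Il4ra levels was not tested.

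Ltbr was highest in monocytes, at 102, 131 and 100.3 CPM (111 ± 17.2). DC means were 49.3 (splenic CD8+), 40.4 (splenic CD4+), 33.1 (LN CD11b+) and 27.5 CPM (LN CD103+), within a range of 16.1 to 59.4 CPM over libraries, and every DC library was below every monocyte library. Both LN replicates numbered 3 were lowest in their subtypes, at 16.9 and 16.1 CPM. Monocytes exceeded splenic CD8+ DCs 2.26-fold (log2 1.17 ± 0.32, edgeR adjusted p = 0.00562) and splenic CD4+ DCs 2.75-fold (log2 1.46, adjusted p = 0.00108). Among DCs 1 difference was called, LN CD103+ below splenic CD8+ at a ratio of 1.79 (log2 -0.84 ± 0.32, adjusted p = 0.0399). It was lost without LN CD103+ replicate 2 or 3 or splenic CD8+ replicate 1 or 2 (adjusted p from 0.0561 to 0.18), and without LN CD103+ replicate 3 it was log2 -0.58.

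DC1 and DC2 differed in 3 of 10 in spleen (Csf1r, Csf3r and Il4ra, all higher in DC2), beside 27.4% of all genes, and in 2 of 10 in LN (Csf1r and Csf3r, both higher in DC2), beside 12.9%. With the replicate block the LN count was 4, adding Flt3 and Il4ra, both higher in DC1. LN differed from spleen in 7 of 10 among DC1, beside 45.6% of all genes, with Csf2rb, Csf2rb2, Il4ra and Il3ra higher in LN and Csf1r, Kit and Ltbr lower. Among DC2 it differed in 4 of 10, beside 33.1%, with Csf2rb, Csf2rb2 and Il4ra higher in LN and Kit lower. The interaction of organ with lineage was called for Csf1r and Il4ra, 2 of 10, beside 11.2%. The median log2 fold change of the 10 was -0.31 and 0.18 for lineage in spleen and LN, and 0.05 and 0.04 for organ in DC1 and DC2, where the median of all genes was 0.00, -0.01, 0.01 and 0.05.

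**Figure D3:**
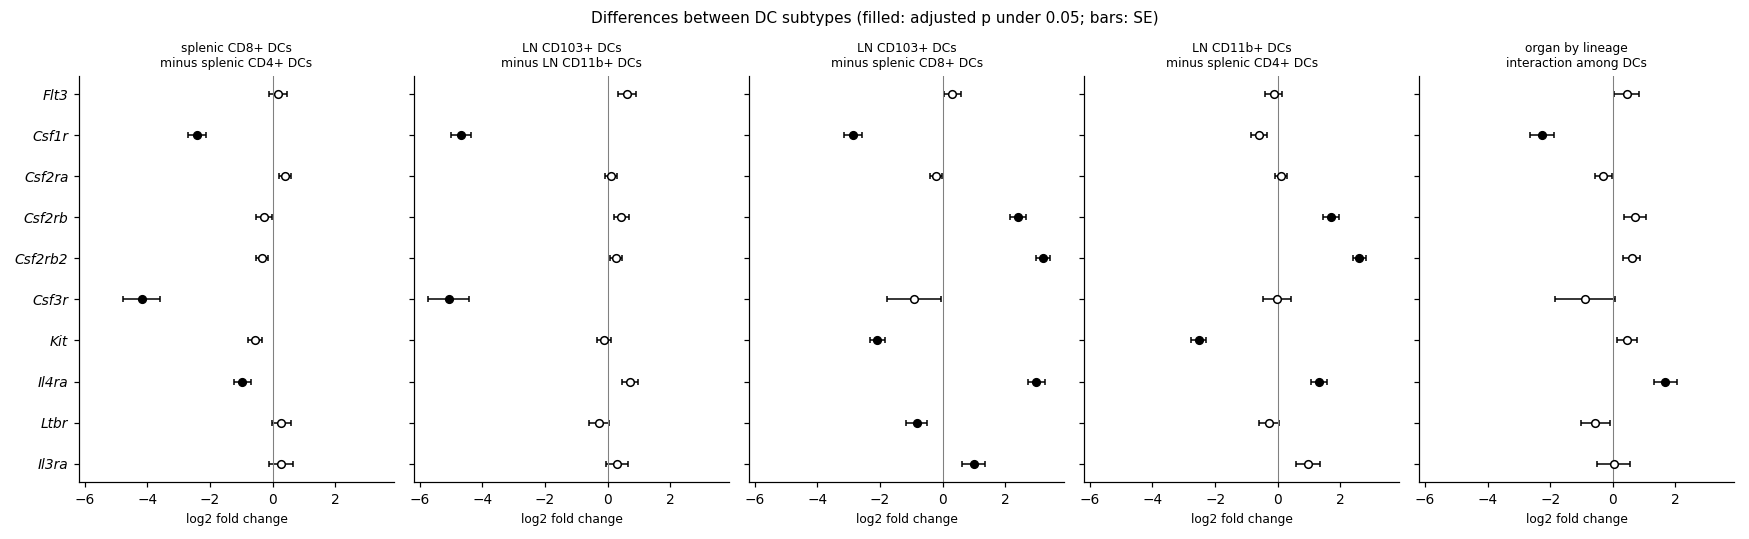
Log2 fold change ± SE (horizontal axis, shared by all panels) of the 10 receptors in the lineage, organ and interaction comparisons of DC subtypes from edgeR, with filled points for an adjusted p under 0.05. Csf1r and Csf3r lie far below 0 in both lineage panels, and Csf2rb, Csf2rb2 and Il4ra lie above 0 and Kit below 0 in both organ panels.

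Monocytes differed from splenic CD8+ DCs in all 10 receptors, beside 42.1% of all genes, with 8 higher in monocytes and Flt3 and Kit lower. Against splenic CD4+ DCs 8 of 10 were called, beside 48.0%, with Csf1r, Csf2ra, Csf2rb, Csf3r, Ltbr and Il3ra higher in monocytes and Flt3 and Kit lower. Against LN CD103+ and LN CD11b+ DCs, which also differ from monocytes in organ, 9 of 10 were called each time, beside 53.2% and 47.8%, with 4 higher in monocytes and 5 lower. The exception both times was Il3ra. In the remaining comparisons, which cross organ and lineage, LN CD103+ and splenic CD4+ DCs differed in 7 of 10, beside 47.0%, and in 9 with the replicate block, which added Flt3 (log2 0.50, edgeR adjusted p = 0.0255, against 0.163 without it) and Ltbr (log2 -0.57, adjusted p = 0.0433, against 0.17). LN CD11b+ and splenic CD8+ DCs differed in 6 of 10, beside 39.9%. Of the 40 steps between neighbours in the 10 orders of levels, 15 were called, from 3 for Csf1r to 0 for Il3ra.

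Receptor levels were also set side by side per transcript length, as TPM. In splenic CD8+ DCs Flt3 (340 ± 54.6 TPM), Csf2ra (248 ± 33.0) and Kit (165 ± 5.25) were highest, and in splenic CD4+ DCs Flt3 (307 ± 37.7), Csf1r (262 ± 44.9) and Kit (253 ± 21.6). In LN CD103+ DCs the leaders were Flt3 (396 ± 64.9), Il4ra (356 ± 27.9) and Csf2rb (352 ± 27.7), and in LN CD11b+ DCs Flt3 (273 ± 35.7), Csf2rb (273 ± 70.7) and Il4ra (231 ± 27.0). Monocytes led with Csf2ra (1314 ± 144) and Csf1r (1301 ± 25.0), followed by Csf3r (276 ± 15.5). Csf3r was last in both DC1 subtypes (0.846 and 0.439 TPM), Il3ra in both DC2 subtypes (6.65 and 12.4 TPM) and Kit in monocytes (1.25 TPM).

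**Figure D4:**
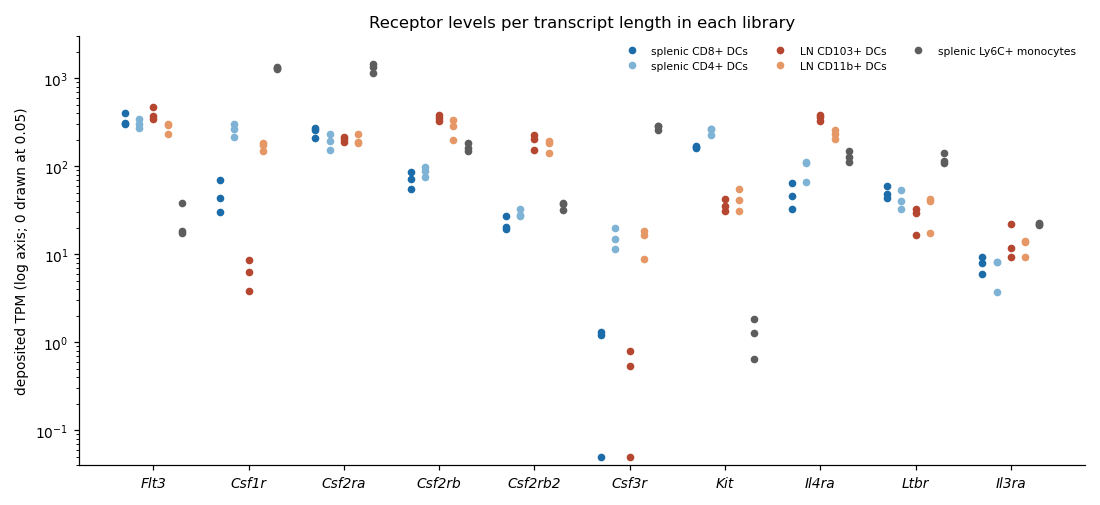
Deposited TPM (vertical logarithmic axis, with values of 0 drawn at 0.05) of the 10 receptors in each of 15 libraries, coloured by subtype. Levels span from 0 TPM for Csf3r in 1 splenic CD8+ and 1 LN CD103+ library to 1440 TPM for Csf2ra in a monocyte library.

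Promoters are shown for 4 of the receptors that part monocytes from DCs, Csf2ra and Csf3r (high in monocytes) and Flt3 and Kit (high in DCs). They are RefSeq windows on GRCm38.p6, 250 bases before the start of transcription and 50 from it on, in the sense of the gene. Capitals mark GAGGAA or its reverse complement TTCCTC, the core bound by PU.1, a transcription factor of myeloid cells.
Csf2ra, chr19:61228369-61228668, minus strand: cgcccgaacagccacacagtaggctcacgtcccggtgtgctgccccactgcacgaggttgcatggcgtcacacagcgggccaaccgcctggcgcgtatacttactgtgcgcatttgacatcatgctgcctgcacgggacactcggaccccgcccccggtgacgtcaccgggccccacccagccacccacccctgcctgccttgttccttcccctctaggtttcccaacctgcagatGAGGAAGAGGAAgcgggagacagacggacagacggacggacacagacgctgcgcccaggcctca
Csf3r, chr4:126024409-126024708, plus strand: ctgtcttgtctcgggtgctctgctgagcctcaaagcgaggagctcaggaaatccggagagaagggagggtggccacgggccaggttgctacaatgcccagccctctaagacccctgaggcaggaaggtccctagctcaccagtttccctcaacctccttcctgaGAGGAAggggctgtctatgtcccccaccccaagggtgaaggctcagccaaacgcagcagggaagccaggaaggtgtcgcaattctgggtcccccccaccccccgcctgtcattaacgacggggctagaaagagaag
Flt3, chr5:147400440-147400739, minus strand: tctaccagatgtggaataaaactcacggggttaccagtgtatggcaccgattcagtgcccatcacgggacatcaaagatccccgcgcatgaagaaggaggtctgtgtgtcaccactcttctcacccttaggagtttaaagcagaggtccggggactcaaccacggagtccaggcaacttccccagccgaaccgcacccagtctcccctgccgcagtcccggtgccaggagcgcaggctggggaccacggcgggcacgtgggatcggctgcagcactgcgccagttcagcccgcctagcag
Kit, chr5:75574737-75575036, plus strand: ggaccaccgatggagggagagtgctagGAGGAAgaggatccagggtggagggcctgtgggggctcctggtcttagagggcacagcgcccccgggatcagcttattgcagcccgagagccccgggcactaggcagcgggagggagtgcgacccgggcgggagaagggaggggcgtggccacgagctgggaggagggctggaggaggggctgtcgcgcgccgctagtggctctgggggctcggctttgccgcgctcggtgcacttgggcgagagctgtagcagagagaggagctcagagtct
On either strand the letters occur in 28.3% of 32851 RefSeq promoters of this length. Of the 8 receptors looked at, 5 hold them, namely Csf2ra (2 matches in a row), Csf3r (1 match, from base -86 relative to the start), Kit, Ltbr and Csf2rb2, and the windows of Flt3, Il4ra and Il3ra do not. The matches are a description of the letters alone.

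Transcripts of the ligands were mostly at or near 0 in the same cells. Of 12 ligand genes counted, Csf2, Csf3, Il3, Il4, Il13, Il5 and Il34 had at most 4 counts over the 3 libraries of any subtype, and Kitl at most 22. Flt3l was not analysed here. Csf1, which encodes M-CSF, had 70.3, 63.5 and 75.5 CPM in the CD103+ and 32.6, 32.4 and 34.9 CPM in the CD11b+ libraries of LN DCs, against 5.65 to 7.86 CPM in monocytes and at most 1.5 CPM in splenic DCs. It was 84.5-fold higher in LN than in spleen among DC1 (log2 6.38 ± 0.34, edgeR adjusted p = 1.34e-10) and 36.4-fold among DC2 (log2 5.16, adjusted p = 3.58e-09), and higher in LN CD103+ than in LN CD11b+ DCs (log2 1.07, adjusted p = 0.0056). The subtype with most Csf1 was thus the subtype with least Csf1r.

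Ligands of LTBR differed between the splenic DCs. Ltb had 250.7, 138 and 221 CPM in splenic CD4+ DCs, against 24.8 to 71.8 CPM in splenic CD8+ DCs (log2 -2.33 ± 0.39 for DC1 minus DC2, edgeR adjusted p = 1.96e-04), and it was lower in LN CD11b+ than in splenic CD4+ DCs (51.6 to 73.5 CPM, log2 -1.71, adjusted p = 0.00178). Monocytes had 6.57 to 10.4 CPM. The B cell list summed to 76.5 to 87.8 CPM in splenic CD4+ DCs and 29.7 to 42.9 CPM in splenic CD8+ DCs. The T cell list summed to 12.8 to 16.1 and 3.37 to 9.43 CPM in the same subtypes. In LN CD11b+ DCs the B and T cell lists reached 43.9 to 78.4 and 27.6 to 43.7 CPM. The part of both lists in the Ltb levels was not tested. Tnfsf14, which encodes LIGHT, was at 14 to 15 CPM in splenic CD4+ DCs and 14.7 to 22.5 CPM in monocytes, and at 0.27 to 1.43 CPM in splenic CD8+ DCs (log2 -3.77, adjusted p = 5.61e-06). Lta reached 4.98 to 19.2 CPM in LN CD11b+ DCs and had no count in monocytes.

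Both partner chains of IL4RA were detected in all subtypes. Il2rg, the common gamma chain of the type I receptor, had 105 to 278 CPM in splenic CD8+ DCs and 734 CPM or more in the other DCs, up to 1610 CPM, with 361 to 373 CPM in monocytes. Between the splenic DCs it was lower in DC1 (log2 -2.47 ± 0.32, edgeR adjusted p = 1.11e-05), it was higher in LN than in spleen in DC1 (log2 2.16, adjusted p = 1.52e-05), and its interaction was called as that of Il4ra was (log2 1.98, adjusted p = 0.0049). T cells also express Il2rg, and the part of the T cell genes given beside Il4ra was not tested. Il13ra1, which completes the type II receptor, was higher in LN by log2 1.88 in DC1 (adjusted p = 2.44e-05) and 1.57 in DC2 (adjusted p = 2.54e-04), and it had 156 to 247 CPM in monocytes. Il5ra, the partner of Csf2rb for interleukin 5, had at most 6 counts in a subtype.

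Downstream of the receptors, 28 signalling genes (kinases of the JAK family, STAT factors, SOCS inhibitors, adaptors, phosphatases and the noncanonical NF-kappaB pathway) were counted. The list was chosen with earlier results of these data known, so its shares called are descriptive only. LN exceeded spleen in 20 of them among DC1 and was below in 5 (89.3% called, beside 45.6% of all genes), and among DC2 in 13 and 6 (67.9%, beside 33.1%), with median log2 fold changes of 1.28 and 0.26 where all genes had 0.01 and 0.05. Socs2, a STAT5-induced inhibitor of cytokine signalling, had the largest difference of the 28, with 727 to 1231 CPM in the CD103+ and 656 to 1466 CPM in the CD11b+ libraries of LN DCs, against 13.5 to 49.4 CPM in splenic DCs (69.6-fold, log2 6.12 ± 0.41, edgeR adjusted p = 1.40e-09 in DC1, and 32.7-fold, log2 5.04, adjusted p = 2.08e-08 in DC2). Monocytes had 2 Socs2 counts in 3 libraries. Socs2 is also on the migratory DC list. Relb, the noncanonical NF-kappaB subunit, was 17.8-fold higher in LN than in spleen among DC1 (log2 4.15, edgeR adjusted p = 4.14e-10). Cish, another STAT5 target, was 16.8-fold higher in LN among DC1 (log2 3.99, edgeR adjusted p = 5.86e-04) and 15.5-fold among DC2 (log2 3.93, adjusted p = 6.62e-04). Cish read 7.84, 18.5 and 35.8 CPM in the LN CD11b+ libraries. The 5 genes lower in LN among DC1 and the 6 among DC2 included in both the phosphatidylinositol 3-kinase subunit Pik3cd (log2 -2.33 and -2.10).

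**Figure D5:**
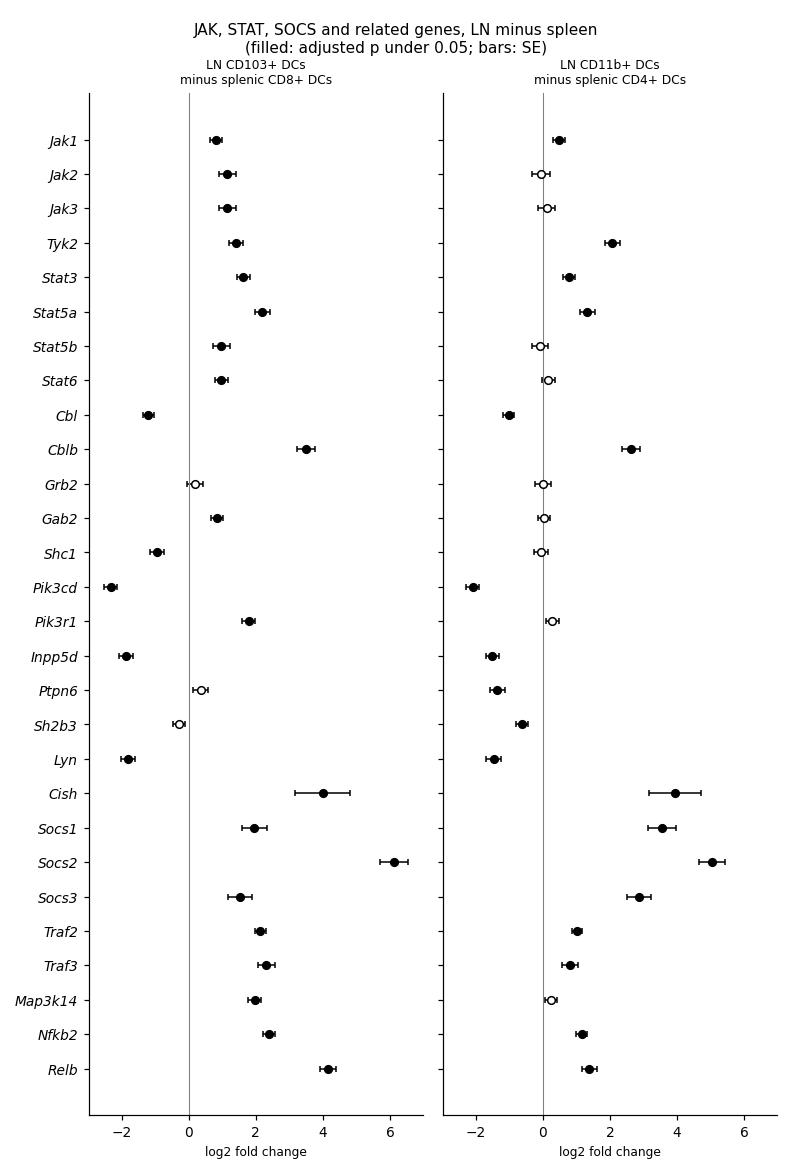
Log2 fold change ± SE (horizontal axis, shared by both panels) of LN minus spleen for 28 signalling genes in DC1 (left) and DC2 (right) from edgeR, with filled points for an adjusted p under 0.05. Socs2 lies farthest to the right in both panels, and Pik3cd farthest to the left.

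Between lineages the signalling genes split 4 higher and 14 lower in splenic CD8+ against splenic CD4+ DCs (64.3% called, beside 27.4% of all genes), and 4 and 3 in the LN pair (25%, beside 12.9%). Relb was 5.77-fold lower in splenic CD8+ DCs (log2 -2.53 ± 0.23, edgeR adjusted p = 2.13e-07) and Socs1 was higher there (5.76 against 1.5 CPM, log2 1.95, adjusted p = 0.00235). In LN, Socs3, an inhibitor of gp130 and G-CSF receptor signalling, was 6.47-fold lower in CD103+ DCs (log2 -2.69, adjusted p = 3.76e-05), and Pik3cd 2.45-fold lower (log2 -1.29, adjusted p = 1.25e-04). The interaction was called for 10 signalling genes (35.7%, beside 11.2% of all genes), all positive, with Relb (log2 2.77, adjusted p = 1.48e-05) and Map3k14, the kinase that activates its pathway (log2 1.73, adjusted p = 3.27e-04), the largest. In monocytes Socs3 was at 149 to 191 CPM, 23-fold over splenic CD8+ DCs (log2 4.52, adjusted p = 2.64e-08) and 8.99-fold over splenic CD4+ DCs (log2 3.17, adjusted p = 1.06e-06). The counts were 14 higher and 4 lower in monocytes against the former (64.3% called, beside 42.1% of all genes), and 9 and 6 against the latter (53.6%, beside 48.0%).

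Over ligands, partners and signalling genes together, 34 passed the filter. These lists too were chosen with earlier results of these data known. Called were 22 for lineage in spleen (64.7%, where 27.4% of all genes were called), 10 in LN (29.4%, beside 12.9%), 30 for organ in DC1 (88.2%, beside 45.6%), 24 for organ in DC2 (70.6%, beside 33.1%) and 11 for the interaction (32.4%, beside 11.2%). Monocytes differed in 24 from splenic CD8+ DCs (70.6%, beside 42.1%) and in 20 from splenic CD4+ DCs (58.8%, beside 48.0%). Their median log2 fold changes were -0.84, 0.19, 1.47, 0.26, 0.84, 0.73 and 0.33 in that order.

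The genes whose pattern over the 15 libraries was most like that of each receptor were found among 10246 genes averaging 10 CPM or more in some subtype, by the root mean square (RMS) difference of log2 CPM after each gene's mean was removed. Csf1r was nearest to Cybb, the NADPH oxidase subunit (0.50), and Igsf6 (0.60), against a median of 2.61 for all genes. Csf2rb2 was nearest to Cblb (0.21), a ubiquitin ligase and 1 of the signalling genes, and Polr3c (0.26, median 1.53). Csf2ra was nearest to Pgd (0.18, median 1.18), an enzyme of the pentose phosphate pathway, and Lrrc8d (0.32), and Csf2rb to Dstn (0.23, median 1.17) and Fdft1 (0.23).

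Kit was nearest to Nedd4 (0.58, median 2.82), another ubiquitin ligase, and Rasgrp3 (0.60), and Il4ra to Myo1g (0.25, median 1.29) and Gpr137b-ps (0.31). Flt3 was nearest to Chst15 (0.44, median 1.74) and to a gene with no symbol in the name table used, ENSMUSG00000019769 (0.47). Ltbr was nearest to Ctdsp1 (0.26, median 0.99) and Tmem259 (0.28), and Il3ra to Ip6k1 (0.30, median 0.92) and Pim1 (0.31), a kinase induced by cytokines. Csf3r had the most distant matches of the 10, with Cyp4f18 at 0.98 and Tlr8 at 1.09, where the median was 3.44.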

How the data were processed

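Ion Torrent reads were mapped to mm10 with STAR 2.4.0j and counted per Ensembl gene with featureCounts 1.5.2 by the authors, unstranded, with a read that overlapped several genes given to each. The deposited counts are not normalized, and the deposited TPM (transcripts scaled by the authors for length and depth) equalled values recomputed from counts and exon lengths within 9.6e-10. Counts by run, 2 runs for each monocyte library, summed to the deposited counts in 15 libraries. Only uniquely mapped reads were counted, and 17.6% to 30.7% of uniquely mapped reads lay in no exon.

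The filter asked for over 1 CPM in 3 or more libraries and left 14456 genes. One edgeR 4.0.16 quasi-likelihood model with TMM scaling and a mean per subtype was fitted to all 15 libraries (R 4.3.3). Scripts were tested on simulated data. SE is the absolute log2 fold change over the square root of F. Replicates are pools of animals, so p-values measure the spread between pools. Symbols came from a table of Ensembl gene names (96.6% of identifiers matched) and promoters from RefSeq. Same-numbered libraries deviated together, with every correlation above 0.1, between the lineages within an organ (0.162 to 0.375), between the organs in DC2 and between LN CD103+ and splenic CD4+ DCs (0.117 to 0.146), but not in the other pairs, and the replicate block was run as an alternative. The members and the gene lists were chosen with earlier results of these data known. Named are all 10 members, the ligands and partner chains at 10 CPM or more in some subtype, the 2 signalling genes with the largest called difference in each comparison, the 2 genes most like each member, and markers. Alternatives were RLE factors, DESeq2 1.42.0, no filter, filterByExpr, limma 3.58.1 with trend on log2(TPM + 1), a minimum of 1 on the absolute log2 fold change, only the subtypes compared, the replicate block, single monocyte runs, Csf2rb and Csf2rb2 summed, and each library left out.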

Additional observations from a re-analysis of the deposited data

Results flagged for a closer look

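The organ difference (LN minus spleen) differed between DC1 and DC2 by the test of the interaction for 2 of the 10 receptors. For Csf1r the interaction was log2 -2.27 (edgeR adjusted p = 7.20e-04, called in 20 of 20 alternatives). Its organ difference was larger in DC1 (log2 -2.87) than in DC2 (log2 -0.60). For Il4ra it was log2 1.67 (adjusted p = 0.00529, also called in 20 of 20), with organ differences of log2 2.99 in DC1 and 1.32 in DC2.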

How the results depend on the processing

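Of the receptors' log2 fold changes under other settings, 1047 kept their direction and side of the threshold, 22 lost a call, 9 gained one and 16 changed sign. None of those that changed sign was called. With the replicate block the count of receptors called between LN CD103+ and LN CD11b+ DCs was 4 in place of 2. In the other pairs whose numbers go together it added Flt3 and Ltbr between LN CD103+ and splenic CD4+ DCs (9 in place of 7) and left the counts at 3 between splenic DCs and at 4 for organ in DC2. Leaving out 1 library at a time turned Flt3 in splenic CD8+ minus CD4+ DCs (-0.033 to 0.391), Kit (-0.262 to 0.056) and Il3ra (-0.113 to 0.538) in LN CD103+ minus CD11b+ DCs, and Flt3 (-0.239 to 0.08), Csf2ra (-0.066 to 0.206), Csf3r (-0.266 to 0.344) and Ltbr (-0.535 to 0.039) in LN CD11b+ minus splenic CD4+ DCs. The interaction of Il3ra, 0.029, was -0.083 by limma on log2 TPM, -0.013 with the replicate block and -0.386 to 0.267 with 1 library left out. The cause was not tested. Genes called moved past 1.5 times in 2 cases, 1216 in place of 1872 between LN CD103+ and CD11b+ DCs without LN CD103+ replicate 2, and 2643 in place of 3966 between splenic DCs at an absolute log2 fold change of 1 or more. Limma on TPM moved the median of all genes by 0.11 in monocytes minus splenic CD8+ DCs.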
